A study of Mus musculus with 5 samples.

Results

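The genes described here are 6 metabotropic glutamate receptors (Grm2, Grm3, Grm4, Grm5, Grm7 and Grm8) and the 3 Homer scaffolds (Homer1, Homer2 and Homer3), taken by symbol from the RNA-Seq values of the mouse dentate gyrus (DG). These 9 genes are part of 23420 gene symbols with a value, and all 9 belong to the 13550 expressed genes, meaning here those whose regularized log values average 5 or more. All groups were wild-type male CD1 mice, an outbred strain, aged 4 months by the labels and kept for 4 weeks in their housing. LD mice lived alone with a locked disk, CE mice lived in social groups with a locked disk and tunnels that were moved around, and RUN mice lived alone with a running disk. L-RUN and H-RUN were the lower and higher runners among the RUN mice. Each group was 1 library of pooled RNA from the whole microdissected DG, from 8 mice each for LD, CE and RUN and from 4 mice each for L-RUN and H-RUN. The RUN pool joined the L-RUN and H-RUN mice, and all comparisons with LD share the single LD library. No group had a replicate library, so that no difference below has a replicate check and no p-value is given.

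Metabotropic glutamate receptors are G protein-coupled receptors that tune synaptic transmission more slowly than the ionotropic receptors. Group I receptors, such as the Grm5 product mGluR5, sit mainly at the edge of the postsynaptic density and couple through Gq to phospholipase C, IP3 and calcium release. Group II receptors (Grm2 and Grm3) and group III receptors (Grm4, Grm7 and Grm8) couple to Gi/o proteins, lower cAMP and often restrain transmitter release from presynaptic terminals. Homer proteins bind the tail of group I receptors and, as multimers, tie them to Shank scaffolds and to IP3 receptors. Homer1 also gives a short, activity-induced form that lacks the multimerization part and uncouples these complexes.

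Homer2 was the one member that passed the cut-off of the study, a log2 fold change of 0.3 in size against LD, and it was lower in RUN and in L-RUN. Homer1 was lower and Grm2 higher in every other group than in LD, both by less than the cut-off. The promoters of these 3 genes are shown because Homer1 and Homer2 differed from LD in one direction and Grm2 in the other. Sequences are from RefSeq on GRCm38.p6 and run 5′ to 3′ from 250 bases before the annotated start over the first 50 bases of the transcript. Capitals mark each match on either strand of a GC box (GGGCGG), a cAMP response element (TGACGTCA), its half-site (TGACG, which the full element contains) or a TATA box (TATAAA).

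Homer2, chr7:81706876-81707175, minus strand: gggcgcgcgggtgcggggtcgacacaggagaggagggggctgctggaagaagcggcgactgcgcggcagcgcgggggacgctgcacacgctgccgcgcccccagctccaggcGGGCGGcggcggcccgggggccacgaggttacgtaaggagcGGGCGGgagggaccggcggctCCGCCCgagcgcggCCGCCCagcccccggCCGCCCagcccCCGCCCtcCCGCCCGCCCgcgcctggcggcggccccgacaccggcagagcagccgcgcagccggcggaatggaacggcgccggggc
Homer1, chr13:93303507-93303806, plus strand: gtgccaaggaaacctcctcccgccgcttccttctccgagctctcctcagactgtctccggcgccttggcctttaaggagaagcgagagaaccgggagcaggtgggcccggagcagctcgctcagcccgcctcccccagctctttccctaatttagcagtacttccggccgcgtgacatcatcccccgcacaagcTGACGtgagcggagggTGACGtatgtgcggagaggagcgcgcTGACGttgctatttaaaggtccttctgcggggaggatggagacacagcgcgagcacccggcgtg
Grm2, chr9:106656060-106656359, minus strand: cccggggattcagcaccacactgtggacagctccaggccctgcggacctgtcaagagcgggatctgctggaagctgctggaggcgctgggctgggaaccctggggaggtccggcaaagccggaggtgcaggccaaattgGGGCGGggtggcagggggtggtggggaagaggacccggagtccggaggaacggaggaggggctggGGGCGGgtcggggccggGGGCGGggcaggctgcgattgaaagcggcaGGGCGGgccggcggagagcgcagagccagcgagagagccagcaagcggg

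The Homer2 window held 8 GC boxes, a motif bound by Sp factors, and the last pair of these matches overlaps. At least 1 GC box was present in 35.7% of all 32851 promoter windows, and 0.262% held 8 or more. The GC content of this window was 82.3%, against a median of 52.7% over all windows. The Homer1 window held 3 cAMP response element half-sites, sequences that CREB family factors can bind, at positions -56, -40 and -14 relative to the start. A half-site was present in 20.8% of all windows, and 3 or more were present in 1.03%. The Grm2 window had a GC content of 72.0% and held 4 GC boxes, and 5.49% of all windows held 4 or more. None of these 3 windows held the full cAMP response element, found in 1.79% of all windows, or a TATA box, found in 13.6%. A second annotated start of Homer2 had a TATA box at position -170. The window of a second annotated start of Homer1 (chr13:93307784-93308083) held none of these motifs. The table held windows for 7 of the 9 members. Grm4 and Grm5 had none. Of the windows not shown, that of Homer3 held 5 GC boxes, and 2.71% of all windows held 5 or more. That of Grm3, which was also below LD in every other library, held 2, and 19.5% of all windows held 2 or more. Whether motifs go with the direction of the differences was not tested. A match in these windows is a description of the letters and not a bound site.

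The values are regularized log values on the log2 scale, and a log2 fold change is one such value minus another. The depth of the libraries is unknown because read counts were not analysed here. The one available error is technical. It comes from the departure of RUN from L-RUN and H-RUN mixed equally on the linear scale, and amounts to an SD of 0.0365 for a difference between 2 libraries over all expressed genes. For the members it was between 0.0222 (Grm5) and 0.0438 (Grm4 and Grm8), by their decile of expression, and it holds no variation between mice. Markers of dentate granule cells, among them Prox1 and C1ql2, had a mean of at least 5 for 9 of 9 genes, with a summed level between 15.31 and 15.46 on the log2 scale. Single granule cell markers differed more than their sum, with Prox1 at -0.41 in L-RUN and C1ql2 at 0.40 in H-RUN and 0.37 in both RUN and L-RUN against LD. The summed level of 9 leptomeningeal markers was lowest in H-RUN at 12.03, followed by LD (12.16), CE (12.41), RUN (13.23) and L-RUN (13.81), and Foxd1 was under 5 in all libraries. The sum of 6 CA1 markers was between 11.77 in L-RUN and 12.27 in CE. Of 5 choroid plexus markers, Folr1, Clic6 and Kcne2 were under 5, while Ttr was at 0.62 in CE against LD, and the sum of the 5 had a range of 0.25 over the libraries. The sums of the CA2 and CA3, inhibitory interneuron, astrocyte, oligodendrocyte, microglia and endothelium markers each had a range of at most 0.22 over the 5 libraries. Single markers of these types also differed more than the sums. Against LD, Bok (CA2 and CA3) was at 0.41 in H-RUN, and Sst (interneuron) at 0.34 in CE and 0.30 in L-RUN. Flt1 (endothelium) was at -0.31 in RUN and -0.43 in L-RUN, and Slc1a3 (astrocyte) at -0.30 in L-RUN. The median of the oligodendrocyte markers was -0.20 in L-RUN. In whole tissue, fewer cells of a type and less RNA per cell cannot be told apart.

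Homer2, whose product is a constitutive, multimerizing scaffold, lies on chromosome 7 from 81600481 to 81707527 on the minus strand (GRCm38). Its regularized log value was 10.19 in LD, 9.999 in CE, then 9.93 in H-RUN, 9.84 in RUN and 9.71 in L-RUN. LD was thus the highest of the 5 libraries and L-RUN the lowest, with the RUN pool between its low and high runners. The log2 fold change against LD was -0.35 in RUN, a ratio of 0.786 on the linear scale, and -0.48 in L-RUN, a ratio of 0.717, with a technical SD of 0.0403. These differences are 8.61 and 11.9 times that SD. In H-RUN the log2 fold change was -0.26, and in CE it was -0.19, neither past the cut-off. Counted from the lowest of all 13550 expressed genes, Homer2 was number 65 in RUN, 73 in L-RUN, 108 in H-RUN and 315 in CE.

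In L-RUN, 3.13% of expressed genes passed the cut-off, 2.33% lower and 0.797% higher, and 1 of the 9 members did. In RUN the share was 1.31%, with 0.952% lower and 0.362% higher, and again 1 of 9 members passed. No member passed in H-RUN, where 0.827% of expressed genes did (0.472% lower and 0.354% higher), or in CE, where 0.598% did (0.266% lower and 0.332% higher). At a lower cut-off of 0.2, 4 members passed in L-RUN, namely Grm2 on the higher side and Grm3, Homer1 and Homer2 on the lower side, beside 9.93% of expressed genes. The plot of regularized log values shows the widest range of the 9 members for Homer2.

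**Figure D1:**
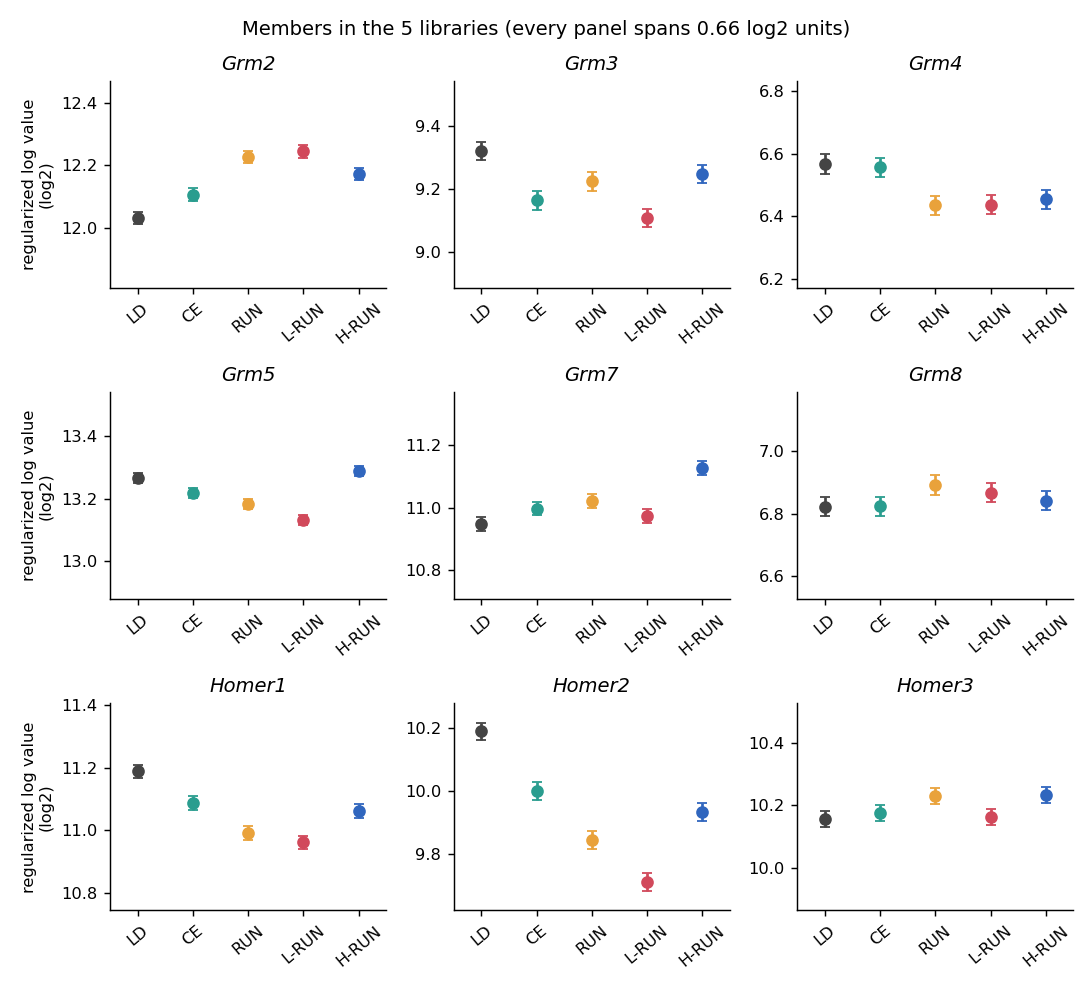
Regularized log value (log2, y axis) of each member in the libraries LD, CE, RUN, L-RUN and H-RUN (x axis, 1 library a group, no replicates), with bars of 1 technical SD of a single library and the same span in every panel. Homer2 runs from 10.19 in LD to 9.71 in L-RUN, and Grm8 stays between 6.82 and 6.89.

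The Homer2 calls depended on the LD library, which held the highest value. With CE as the baseline, a choice made after the values were seen, the log2 fold change of Homer2 was -0.16 for RUN, -0.29 for L-RUN and -0.07 for H-RUN, and no member passed the cut-off in RUN minus CE (0.834% of expressed genes did), L-RUN minus CE (1.89%) or H-RUN minus CE (1.06%). Against the mean of LD and CE, Homer2 was at -0.25 in RUN and at -0.39 in L-RUN, so that the RUN call was lost. Markers of other cells moved in the same libraries. Of the 9 leptomeningeal markers, 6 were higher than LD past the cut-off in L-RUN, 5 in RUN, 3 in CE and 0 in H-RUN, where 1 (Ogn, -0.68) was lower. Of the 6 CA1 markers, 4 were lower in L-RUN and 1 each in RUN and H-RUN, and 1 (Fibcd1, 0.31) was higher in CE. The part of these cells in the Homer2 values was not tested.

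Length of the gene also moved with the differences from LD. Over the expressed genes, the Spearman correlation of the difference with exon length was -0.331 for CE, -0.508 for RUN, -0.531 for L-RUN and -0.376 for H-RUN, a description across genes that share the same libraries. Homer1 (11.5 kb of exons) and Homer2 (11.2 kb) were the longest of the 9 members. In the bin of the longest expressed genes, with a median of 10.9 kb, the median difference in L-RUN was -0.14 and 12.5% of 639 genes were lower past the cut-off, against 0.16% of the 639 genes in the bin of the shortest. With the trend removed by a lowess curve, Homer2 was at -0.25 in RUN, which no longer passed, and at -0.35 in L-RUN, which still passed. These values hold for the union of exons. Of 4 annotated coding transcripts of Homer2, 1 reaches the furthest end at 81600481, and the others end at 81609730 or 81612325. The longest transcript of Homer1 has 5713 bases. Removal of the trend at shorter lengths was not tried. The part of length in the result was not tested beyond this.

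**Figure D2:**
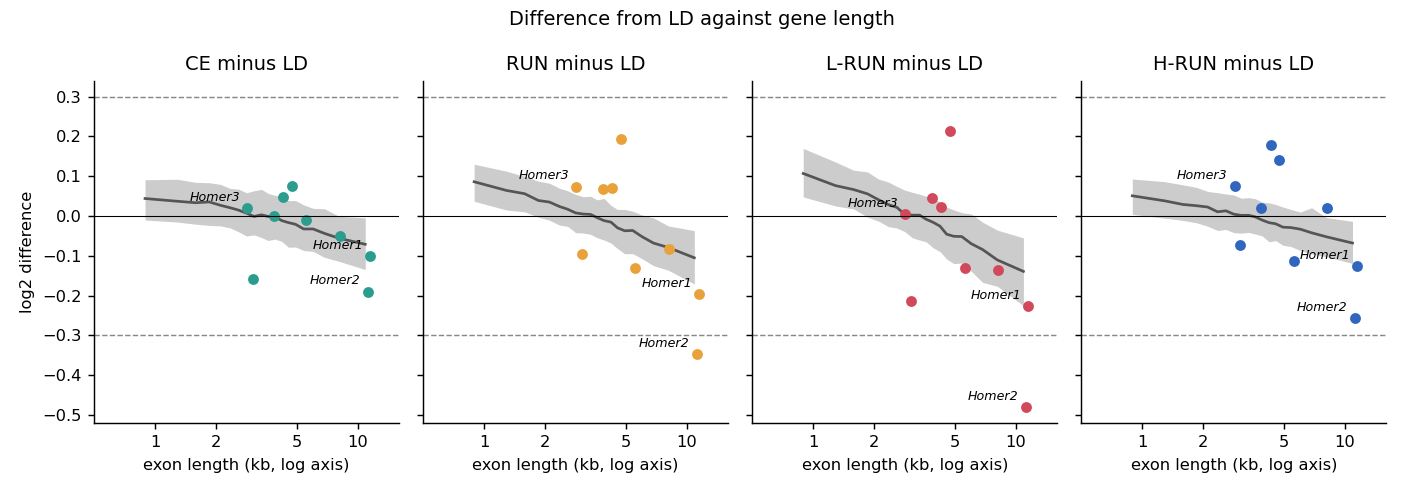
Difference from LD (log2, y axis) against exon length (kb, log axis) in CE, RUN, L-RUN and H-RUN, where the line is the median and the grey band the quartiles of expressed genes in 20 bins of length, the points are the 9 members and the dashed lines mark 0.3 in either direction. Homer2 lies below the band in all 4 panels, while Homer1 lies near its lower edge.

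Homer1 encodes both long, constitutive scaffolds and the short, activity-induced form, on chromosome 13 from 93299635 to 93405129 on the plus strand. The deposited value sums them, and of 11 annotated coding transcripts 4 end more than 10 kb before the furthest end of the gene, so that the forms cannot be told apart. Its regularized log value was 11.19 in LD, 11.09 in CE, then 11.06 in H-RUN, 10.99 in RUN and 10.96 in L-RUN. The order of libraries was the same as for Homer2, but it is not resolved at every step. Against CE, Homer1 was at -0.02 in H-RUN, below its technical SD of 0.0308. RUN joins the RNA of both runner groups, so that its place between them is partly set by the pooling. Against LD, the log2 fold change for CE was -0.10, for RUN -0.20, for L-RUN -0.23 and for H-RUN -0.13, between 3.3 and 7.33 times the technical SD of 0.0308. With the length trend removed, these became -0.03, -0.10, -0.09 and -0.06. The trend itself, read at the length of Homer1, was -0.07, -0.10, -0.14 and -0.07.

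Homer3, the third scaffold gene (chromosome 8, plus strand), did not share this order. Its values were 10.16 in LD, 10.18 in CE, 10.23 in RUN, with 10.16 in L-RUN and 10.23 in H-RUN. The largest log2 fold change was 0.08 in H-RUN, which is 2.1 times its technical SD of 0.0362, and in L-RUN it was 0.01. Homer3 was not below LD in any library, although its L-RUN value became -0.01 with the length trend removed and against CE.

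Grm5 encodes mGluR5, the Gq-coupled receptor that Homer proteins bind, and spans 87584168 to 88134907 of chromosome 7 on the plus strand. Its value was 13.27 in LD, 13.22 in CE, 13.18 in RUN, with 13.13 in L-RUN and 13.29 in H-RUN. L-RUN was the lowest library and H-RUN the highest, with RUN between them. The log2 fold change was -0.14 in L-RUN, 6.12 times the technical SD of 0.0222, and 0.02 in H-RUN, below that SD. In CE it was -0.05 and in RUN -0.08. With the length trend removed, the L-RUN value was -0.04 and the sign of the CE value turned (0.00). Grm5 was the only one of the 9 members for which LD was neither the highest nor the lowest library. LD was highest in 4 members and lowest in 4, and it was highest or lowest in 53.9% of expressed genes. This count was made after the values were seen.

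Grm2 encodes mGluR2, a presynaptic group II autoreceptor known from dentate granule cells and their mossy fibers. It lies on chromosome 9 from 106643095 to 106656082 on the minus strand. Its regularized log value was 12.03 in LD, 12.11 in CE, then 12.17 in H-RUN, 12.23 in RUN and 12.25 in L-RUN. The order of libraries was the reverse of that for Homer1 and Homer2, although RUN and L-RUN lay within the technical SD of 0.0282 of each other. Its log2 fold change for CE was 0.07, for RUN 0.19, for L-RUN 0.21 and for H-RUN 0.14, or levels higher by 5.33%, 14.4%, 15.9% and 10.2%. These are 2.66, 6.91, 7.55 and 4.95 times the technical SD of 0.0282. Counted from the highest, Grm2 was number 228 of the expressed genes in RUN, with 364 in L-RUN and 574 in H-RUN. Removal of the length trend left it higher, at 0.22 in RUN and 0.25 in L-RUN, and so did CE as the baseline, at 0.12 and 0.14.

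Grm3, the other group II gene, encodes mGluR3, which is found in astrocytes as well as neurons. Its regularized log value was 9.32 in LD, 9.16 in CE, 9.22 in RUN, with 9.11 in L-RUN and 9.25 in H-RUN. It was below LD in every other library, while Grm2 was above LD. This opposite direction depended on the LD library, since against CE Grm3 was higher in RUN (0.06) and H-RUN (0.08) and lower in L-RUN (-0.06), and against the mean of LD and CE the H-RUN value was 0.005. Its log2 fold change for CE was -0.16, for RUN -0.10, for L-RUN -0.21 and for H-RUN -0.07, with a technical SD of 0.0417. The sum of 7 astrocyte markers ran from 15.58 to 15.70, also highest in LD and lowest in L-RUN. Single astrocyte markers differed in direction. In CE, Aldh1l1, Aldoc and Sox9 were above LD and the other markers below, and in L-RUN only Aldoc was above. The part of astrocytes in the Grm3 values was not tested. Of the members, Grm3 had the largest departure from the equal mixture of both runner groups. RUN exceeded this mixture by 0.05, and over all 9 genes this departure ran from -0.03 (Grm7) to that value, with 0.02 for Homer2. The RUN value lay between those of both runner groups in 7 members, beside 58.3% of expressed genes.

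**Figure D3:**
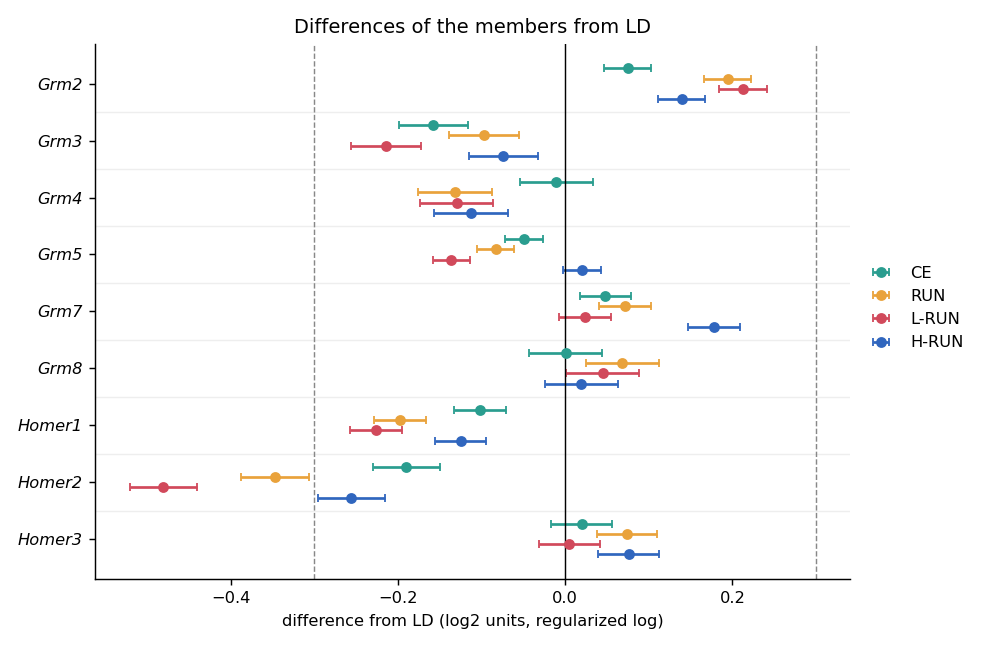
Difference from LD (log2, x axis) of the 9 members in CE, RUN, L-RUN and H-RUN (1 library a group), with bars of 1 technical SD of a difference and dashed lines at 0.3 in either direction. Homer2 in RUN (-0.35) and L-RUN (-0.48) lies beyond the dashed line, and Grm2 lies to the right of 0 in all 4 groups.

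The group III receptors, which act mostly as presynaptic autoreceptors and heteroreceptors, were all within 0.2 of LD. Grm7, the gene of mGluR7, a receptor of the active zone with low glutamate affinity, was at 10.95 in LD, 10.996 in CE, 11.02 in RUN, with 10.97 in L-RUN and 11.13 in H-RUN. H-RUN stood above the other libraries, with a log2 fold change of 0.18 against LD (5.78 times the technical SD of 0.0308, number 276 from the highest expressed gene) and of 0.15 against L-RUN. Grm4, the gene of mGluR4, was at 6.57 in LD, 6.56 in CE, 6.44 in RUN, with 6.44 in L-RUN and 6.45 in H-RUN. The 3 running libraries were thus all below both libraries without running, by -0.13, -0.13 and -0.11 against LD, each between 2.57 and 3.01 times the technical SD of 0.0438. With the length trend removed, these became -0.09, -0.07 and -0.09. Grm8, the gene of mGluR8, was between 6.82 in LD and 6.89 in RUN, and its largest log2 fold change of 0.07 was 1.57 times its technical SD.

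Between the high and low runners, no member passed a difference of 0.3, and 1.54% of expressed genes did. The H-RUN minus L-RUN difference was 0.22 for Homer2, 0.16 for Grm5, 0.15 for Grm7, 0.14 for Grm3, 0.10 for Homer1 and 0.07 for Homer3. These 6 genes were higher in H-RUN by more than their technical SD. The share of expressed genes past their technical SD was not counted here. Their median size of difference was 0.0552, above the technical SD given earlier for all expressed genes, so that such sizes were common. The difference also had a Spearman correlation of 0.359 with exon length over the expressed genes. With the length trend removed, Homer1 was at 0.0277, below its technical SD of 0.0308, while the others of the 6 stayed above theirs. Grm2 was lower in H-RUN by -0.07, and Grm4 and Grm8 differed by less than their technical SD. The median over the members was 0.10, beside 0.00 over all expressed genes. Between running and the complex environment, RUN minus CE was -0.16 for Homer2, -0.12 for Grm4, -0.10 for Homer1 and 0.12 for Grm2, and the other 5 members lay between -0.03 and 0.07. No member passed 0.3 in this comparison.

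To set levels of different genes side by side, log2 of the exon length in kb was subtracted from the regularized log value, which gives a log2 level per kb. Grm5 was the most abundant member on this scale, with a mean of 10.19 over the 5 libraries, followed by Grm2 at 9.92. Next came Grm7 at 8.91 and Homer3 at 8.68, then Grm3 at 7.61 and Homer1 at 7.53. Homer2 was at 6.45, and Grm8 at 4.90 and Grm4 at 4.01 were the lowest. Among neighbours in this order, only Grm3 and Homer1 had overlapping ranges over the 5 libraries, so that their order is not resolved. The place of Homer1 depended on the length used, and it was at 8.54 with its longest transcript in place of the union of exons. For Homer2 both lengths were close (11168 and 10982 bases). Its level without the furthest end described above was not computed, so that its place is not resolved for the shorter forms.

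**Figure D4:**
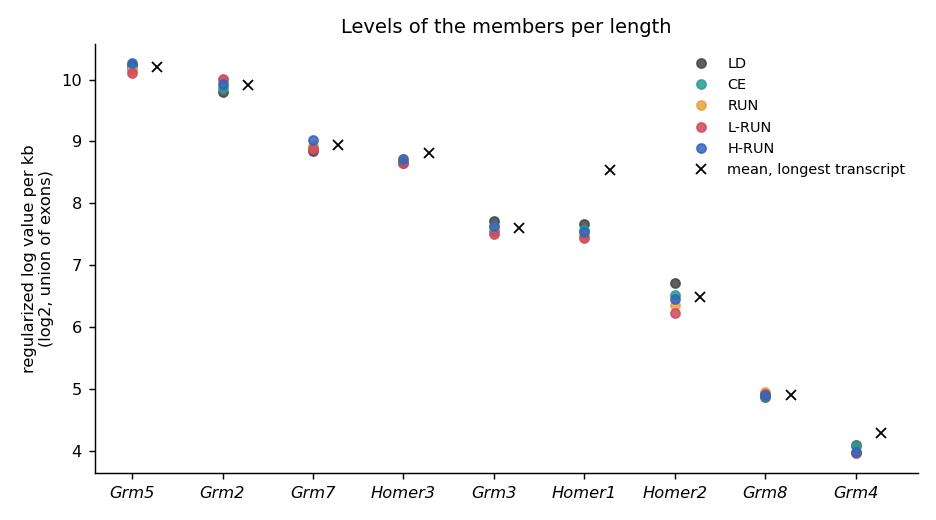
Regularized log value per kb of exon (log2, y axis) of the 9 members (x axis) in each of the 5 libraries (colored points), with the mean for the longest transcript as a cross. Grm5 and Grm2 are highest and Grm4 lowest, and the points of Grm3 and Homer1 overlap.

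The expressed genes whose 4 differences from LD lay nearest to those of Homer2, by Euclidean distance in log2 units, were Zbed6 at 0.0314, Pnmal1 at 0.0420 and Trip11 at 0.0671. Zbed6 is a transcriptional repressor gene that lies inside a host gene, so that its reads may be shared, and Trip11 encodes a Golgi protein. In L-RUN the 3 genes were at -0.46, -0.46 and -0.51, beside -0.48 for Homer2. In all, 18 genes lay within 0.1 of Homer2.

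The genes around the receptors were taken as 5 lists and are described by counts and medians. Over all expressed genes, as given above, 2.33% were lower past the cut-off in L-RUN, 0.952% in RUN, 0.472% in H-RUN and 0.266% in CE, and the medians were 0.00. In the Gq and IP3 list of 18 genes, which holds the signaling partners of mGluR5, 3 were lower past the cut-off in L-RUN, 2 in RUN, 1 in CE and 1 in H-RUN. One gene, Daglb, a diacylglycerol lipase, was higher, at 0.34 in H-RUN. The median of the list was -0.10 in L-RUN, and -0.05 with the length trend removed. Itpr1, the IP3 receptor that Homer ties to mGluR5, was past the cut-off in every group. Its regularized log value was 12.79 in LD, 12.42 in CE, 12.31 in RUN, with 12.18 in L-RUN and 12.39 in H-RUN. The log2 fold changes were -0.37, -0.48, -0.60 and -0.40 in this order (technical SD 0.0222). LD was highest and L-RUN lowest, as for Homer2, and all 4 calls rest on the single LD library. The values in CE (12.42) and H-RUN (12.39) lay close together. Differences of Itpr1 with CE as the baseline were not computed. With the length trend removed, Itpr1 stayed past the cut-off in all 4 groups, at -0.31, -0.39, -0.48 and -0.34. Prkcb, a protein kinase C downstream of diacylglycerol, was at -0.56 in L-RUN, -0.30 in RUN and -0.14 in H-RUN. Trpc5, a calcium-permeable channel downstream of Gq, was at -0.44 in L-RUN and between -0.21 and -0.15 in the other groups.

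Of 19 Homer partners, a list that shares Itpr1 and the Trpc channels with the previous one, 3 were lower past the cut-off in L-RUN (Itpr1, Trpc5 and Dlgap2) and none was higher. Itpr1 alone passed in CE, RUN and H-RUN. Dlgap2, a postsynaptic scaffold that links PSD-95 to Shank, was at -0.39 in L-RUN and -0.06 in H-RUN. The Shank genes, whose products bind Homer directly, did not pass in any group, the lowest being Shank1 at -0.26 in L-RUN. The list median in L-RUN was -0.13, and it was -0.03 with the length trend removed.

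In the Gi/o and cAMP list of 21 genes, the effectors of group II and III receptors, 5 were lower past the cut-off in L-RUN, 1 in CE and none in RUN or H-RUN, and none was higher. Kcnj6 and Kcnj3 encode subunits of the G protein-gated potassium channel and were at -0.49 and -0.45 in L-RUN, against -0.09 and -0.07 in H-RUN. Adcy9, an adenylyl cyclase, was at -0.45 in L-RUN and 0.00 in H-RUN. The other genes past the cut-off were Prkar2a in L-RUN (-0.41) and Adcy1 in L-RUN (-0.37) and CE (-0.30). With the length trend removed, Adcy1 was at -0.23 in both and no longer passed, which left no call in CE. The list median in L-RUN was -0.10, and -0.08 with the trend removed.

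Among 22 receptor regulators, 2 were lower and 1 higher in RUN and in L-RUN, 1 was lower and 1 higher in H-RUN, and none passed in CE. Elfn2, a postsynaptic adhesion protein that binds group III receptors across the synapse, was at 11.42 in LD, 11.42 in CE, 11.01 in RUN, with 10.91 in L-RUN and 11.07 in H-RUN. The 3 running libraries were all below both libraries without running, and the log2 fold changes of -0.41, -0.50 and -0.35 passed the cut-off also with the length trend removed (-0.34, -0.41 and -0.31). Rgs4, a GTPase activator that limits Gq and Gi signaling, was the opposite case, at 12.03 in LD, 12.01 in CE, 12.40 in RUN, with 12.41 in L-RUN and 12.45 in H-RUN. Its log2 fold changes were 0.37, 0.38 and 0.42 in the running libraries and -0.02 in CE. Arc, an immediate early gene whose translation group I receptors promote, was at -0.33 in RUN, -0.45 in L-RUN, -0.15 in H-RUN and -0.04 in CE. The list median was -0.04 in L-RUN, and -0.03 with the length trend removed.

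Of the 15 expressed genes of 16 listed for glutamate handling, 2 were lower past the cut-off in L-RUN and none passed elsewhere. Slc1a2, the main glial glutamate transporter, was at -0.36 in L-RUN, which became -0.22 with the length trend removed, and at -0.03 in H-RUN. Slc1a3, the second glial transporter and also one of the 7 astrocyte markers, was at -0.30 in L-RUN and at -0.27 with the length trend removed. The list median in L-RUN was -0.06, and -0.03 with the length trend removed. L-RUN, which had the highest share of lower genes over all expressed genes, also had the highest leptomeningeal marker sum, and the part of that sum in the values of the lists was not tested.

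**Figure D5:**
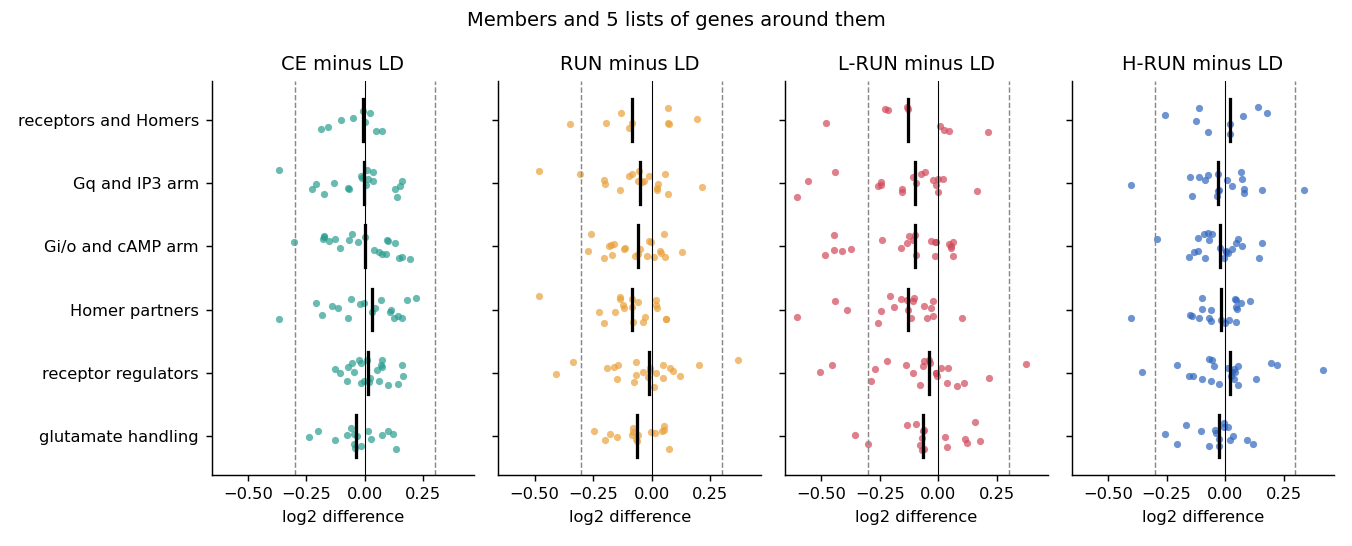
Difference from LD (log2, x axis) in CE, RUN, L-RUN and H-RUN of the 9 members and of the genes of 5 lists (y axis). Each point is a gene, black bars are medians and dashed lines mark 0.3 in either direction. The glutamate handling points and medians here include Naalad2, which is under 5 in all libraries and not among the 15 expressed genes of that list. The lowest point in every panel is Itpr1, which is in 2 of the lists, and the highest in RUN, L-RUN and H-RUN is Rgs4.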

How the data were processed

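The DG RNA of pooled mice was sequenced as 1 library for each of LD, CE, RUN, L-RUN and H-RUN. Per the labels and methods, the authors used CASAVA 1.8.2, mapped reads to mm10 with TopHat2 2.0.10, counted them per RefSeq gene (HTSeq) and normalized all libraries at once in DESeq2 1.10.1. They deposited regularized log values on the log2 scale, which understate differences of genes with few reads.

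Here, differences between libraries were taken over all 13550 expressed genes, with the cut-off of 0.3 that the study used. No test was run, since each group is 1 library. The technical SD is from the median absolute deviation of RUN minus log2 of the linear mean of L-RUN and H-RUN, per decile of expression, and the residual was taken as 1.5 times the variance of a library and a difference as 2 times. Exon lengths came from GENCODE for GRCm38 (94.2% of expressed genes had one), and the length trend was a lowess curve (fraction 0.3). Named genes were all 9 members, up to 3 genes with the largest difference past the cut-off from each list, the 3 genes nearest to Homer2, and markers under 5 or with the largest ranges. Daglb, Adcy1, Prkar2a, Ogn, Aldh1l1, Aldoc, Sox9, Naalad2 and the Shank genes were named after their values were seen. The members and lists were chosen with earlier results of these data known. Alternatives were cut-offs of 0.2, 0.4 and 3 technical SD, median centring, quantile normalization, a minimum mean of 7, other baselines, the longest transcript, another mixture and removal of the length trend. Scripts were tested on simulated data, under matplotlib 3.10.9, statsmodels 0.14.6, scipy 1.17.1, pandas 2.3.3, numpy 2.4.6 and python 3.11.15.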

Additional observations from a re-analysis of the deposited data

Results flagged for a closer look

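Of 40 genes examined, among them the 9 members, 2 genes differed from LD in opposite directions in L-RUN and H-RUN by more than their technical SD in each, and no member did. Ptgds, a leptomeningeal marker, was at 1.97 in L-RUN and -0.10 in H-RUN, so that H-RUN minus L-RUN was -2.07. Pou3f1, a CA1 marker, was at -0.42 in L-RUN and 0.10 in H-RUN, a difference of 0.52. With 1 library a group, the difference was not tested.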

How the results depend on the processing

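The count of members past the cut-off in RUN, 1 in the report, was 0 at a cut-off of 0.4, 0 with the length trend removed, 0 against the mean of LD and CE and 0 against CE. In L-RUN, 1 in the report, it was 4 at a cut-off of 0.2 and 0 against CE, and it remained 1 under the other alternatives. At a cut-off of 0.2, Homer2 alone passed in H-RUN (-0.26) and in H-RUN minus L-RUN (0.22). The share of expressed genes past 0.2 was not counted for these comparisons. The other alternatives for these counts, and all of those for CE and RUN minus CE, gave the counts of the report. Of 54 differences of the members, 21 moved by more than the technical SD when the length trend was removed, 4 under quantile normalization and 0 under median centring, and no difference past the cut-off changed sign. The technical SD was 0.0365 with the mixture taken on log values and 0.0363 at a minimum mean of 7. With the longest transcript, the level per kb was 8.54 for Homer1, 8.81 for Homer3, 8.94 for Grm7 and 4.29 for Grm4. The comparison with CE was added after the values were seen. No replicate could be left out, because each group is 1 library. No paired analysis was possible because each group holds 1 library. Depth is unknown, and variation between mice cannot be estimated from pooled RNA.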
